A study of Mus musculus with 37 samples.

Results

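The effect of removing Twist1 from proximal tubule cells was read in kidneys that had not been obstructed, by comparing the contralateral kidneys of 3 deleted mice with those of 3 controls. These 6 arrays, of 37 in the set, were all those whose labels give a contralateral kidney and a floxed Twist gene, either with the ggt-cre transgene (mice 4, 6 and 7) or without it (mice 1, 2 and 3). Per the labels, every one of these 6 mice was homozygous for the floxed Twist1 allele, was 10 weeks old, had a mixed C57Bl/6 and sv129 background, and had had the ureter of its other kidney tied off. The kidney measured here is therefore the untouched partner of an obstructed one, not the kidney of an unoperated mouse. Controls had no cre, so cre and the deletion went together. The transgene is active in proximal tubule epithelium, while the RNA came from whole kidney, so Twist1 of other cell types remained. In such bulk RNA, fewer cells of a type and less RNA per cell cannot be told apart. Nothing in the labels says that 2 arrays share a mouse within a group, and each array was taken as 1 animal.

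Twist1 is a basic helix-loop-helix transcription factor that binds E-box sequences as a dimer with E proteins. It patterns mesenchyme in the embryo, and in injured epithelium it is known, with the Snail and Zeb factors, for repressing epithelial adhesion genes and turning on mesenchymal ones. In the adult kidney it is studied mainly in fibrosis, where tubule cells that lost polarity express it, and the contralateral kidney allows its deletion to be read without that injury.

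The other groups were obstructed kidneys of the same line (3 controls, 4 deleted mice), contralateral and obstructed kidneys of a Snai1 line of the same layout on a mixed C57Bl/6 and Balb/c background (3 arrays per group), and healthy kidneys. Healthy kidneys came from wild-type mice without or with cre (10 weeks) and from Twist1-deleted or Snai1-deleted mice with cre (26 weeks), with 3 arrays per group. Transcripts were measured with Illumina bead arrays, and all levels below are background-corrected, quantile-normalised intensities on the log2 scale. Changes are log2 differences, deleted minus control, tested with limma over the 24 unobstructed kidneys, which gives 1 spread per gene for 8 groups. A gene is said to change only where its p adjusted over all 12866 genes was under 0.05.

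Detected probes numbered 17171 to 18456 on the 6 arrays. The defining markers of proximal tubule (6 of 6 measured), thick limb and distal tubule (5 of 5) and collecting duct (5 of 5) were detected on all 6, and their mean levels overlapped between the groups, at 12.15 to 12.32 in controls and 11.97 to 12.41 in deleted kidneys for the proximal tubule. None of the 3 measured T cell markers was detected on all 6 arrays, and no adrenal marker was measured.

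The deletion could not be seen in its own transcript. The only Twist1 probe read 4.84, 4.45 and 4.62 in the 3 controls and 4.54, 4.51 and 4.98 in the 3 deleted kidneys. These values overlap, and the probe was above background in 0 of the 6 kidneys, while it was detected on 15 of the 37 arrays. The log2 change was 0.04 (SE 0.19, 95% interval -0.36 to 0.44, adjusted p = 0.99). Where the probe lies relative to the floxed part is not given in the sources used here, and a probe outside it would check nothing. Snai1, the second factor that the study deleted, was detected in 1 of the 6 and had a change of 0.06 (SE 0.26, adjusted p = 0.99). Of the 10 genes nearest Twist1 in the reference gene order, 2 were measured. Ferd3l, another helix-loop-helix gene, had a change of 0.07 (SE 0.16) and the histone deacetylase gene Hdac9 one of -0.20 (SE 0.20), neither of which passed.

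One deleted mouse stood apart from the other 5 animals before any comparison was made. The array of mouse 7 correlated with the others at r = 0.958 to 0.970, against 0.973 to 0.989 among the rest. In mouse 7, 39 genes lay more than 2 log2 units outside the range of the other 5 arrays, 15 above it and 24 below. The same count was 6, 13 and 1 for control mice 1, 2 and 3, and 2 and 0 for deleted mice 4 and 6. Of those 39 genes, 36 were also outside the range of the other 6 obstructed kidneys of the line in the obstructed kidney of mouse 7, on the same side and by any margin. By the same rule it was 4 of 6 genes for control mouse 1, 0 of 13 for control mouse 2 and 1 of 1 for control mouse 3. For deleted mouse 4 it was 1 of 2. The share of all genes outside the range of the other obstructed kidneys was not counted.

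The class II histocompatibility gene H2-Ea read 11.24 in mouse 7 and 4.41 to 4.81 in the other 5 contralateral kidneys. In obstructed kidneys it read 12.89 in mouse 7 and 4.41 to 4.55 in the other 6, so both kidneys of this mouse were high and all others of the line low. Over the 37 arrays H2-Ea was above 8 on 26 and below 6 on 11, and these 11 were the remaining Twist1-line kidneys that had been obstructed or were contralateral. Its group means were 10.14 to 11.31 in the other 6 unobstructed groups. The healthy Twist1-deleted mice were among these, at 10.60 to 10.97. Dao, the D-amino acid oxidase of proximal tubule peroxisomes, read 4.60 in mouse 7 and 11.00 to 12.04 in the others. In healthy wild-type mice 17 and 19, both without cre, Dao was also low, at 4.59 and 4.71. The beta-globin gene Hbb-b2 read 9.96 in mouse 7 and 4.40 to 4.81 in the others. Hbb-b2 was also high in healthy wild-type mice 14 and 16 to 19, at 7.59 to 8.69, and read 4.45 in mouse 15. The labels give mouse 7 the same background as the other 5, and whether that holds for this mouse was not tested.

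Control mouse 2 carried 13 genes above the range of the other 5 arrays, among them the brown fat genes Ucp1 and Cidea and the fat cell hormone Adipoq. Adipoq read 10.35 in mouse 2, against 5.97 and 4.55 in the other controls and 4.85, 5.65 and 7.68 in the deleted kidneys. In its obstructed kidney, 0 of the 13 genes stood out. Xist, which is transcribed from the inactive X chromosome of females, exceeded the Y-linked genes in mouse 1 (8.93) and mouse 7 (7.31), 1 animal of 3 in each group. The 2 groups therefore held the same number of such mice, although sex is not in the labels. Values without an array are given below for genes with an unadjusted p under 0.05 whose printed change moved by over 1.5 times when it was left out.

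**Figure D1:**
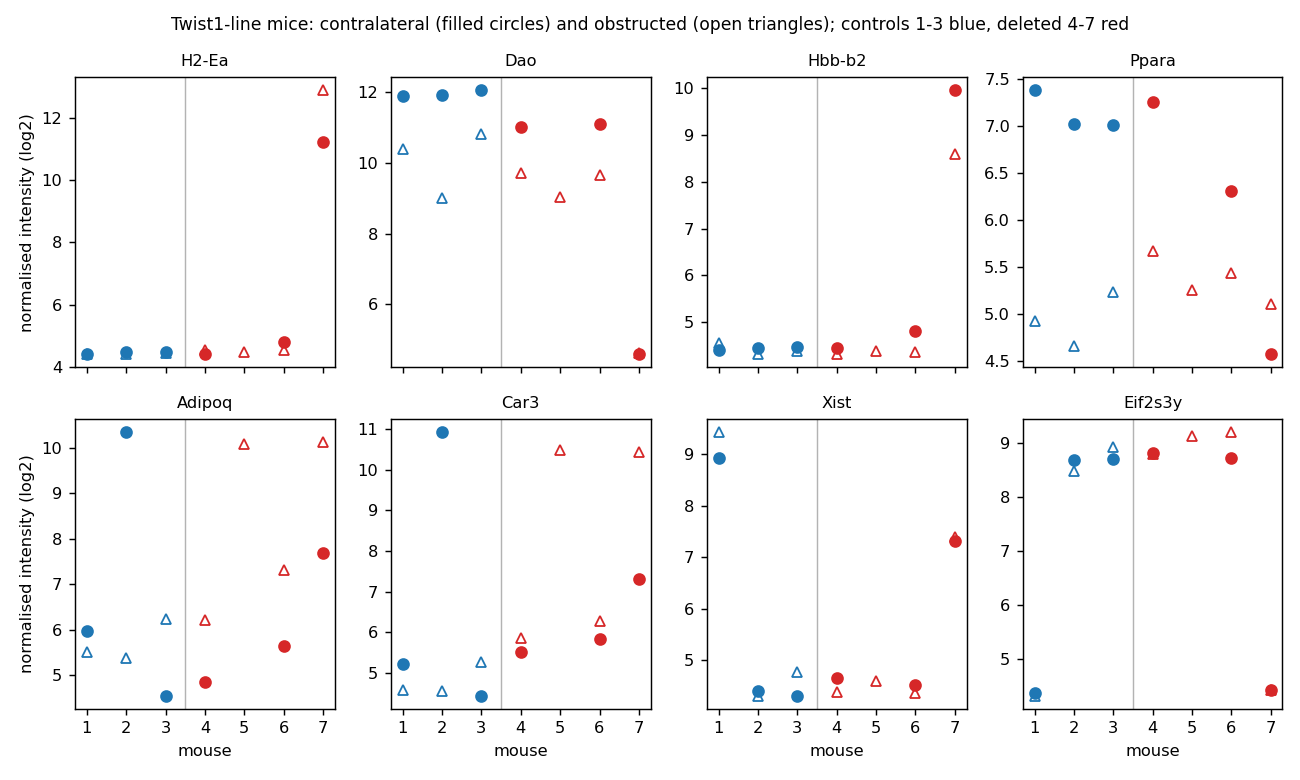
Normalised intensity (log2, y axis) of 8 genes in each Twist1-line mouse (x axis), with contralateral kidneys as filled circles, obstructed kidneys as open triangles, controls in blue and deleted mice in red. Mouse 7 stands apart for H2-Ea, Dao and Hbb-b2 in both kidneys, control mouse 2 stands apart for Adipoq and Car3 in the contralateral kidney only, and mice 1 and 7 have Xist and lack Eif2s3y.

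Of 12866 genes, 2 changed (0.0155%), Gin1 upward and Dglucy downward. Gin1 is a gene derived from a retrotransposon integrase, and Dglucy encodes the mitochondrial enzyme D-glutamate cyclase. With these 2, 836 genes had an unadjusted p under 0.05. Of the 836, 467 were higher (3.63% of the genes tested) and 369 lower (2.87%) in deleted kidneys. The 3 deleted arrays lay wholly above the 3 controls for 496 genes (3.86%) and wholly below for 391 (3.04%). The 95% interval of the change lay within a 2-fold change in either direction for 11514 genes (89.5%), and the median half-width of that interval was 0.40 log2 units. These intervals use the spread shared by the 8 groups and not that of the deleted kidneys alone. The median SD over genes was 0.203 within controls and 0.261 within deleted kidneys, against 0.135 to 0.213 in the other unobstructed groups. The estimated change was over 2-fold for 65 genes, 23 higher and 42 lower, and Gin1 was one of these. The same fit on simulated arrays recovered 69% of 100 genes given a log2 change of 1 and 97% of 100 given a change of 2. The simulated noise was normal, with 1 spread per gene for all 8 groups and no outlying array. The recovered shares therefore do not include the wider spread of the deleted kidneys. Without mouse 7 the count of changed genes was 3, and 631 genes had an unadjusted p under 0.05. Without deleted mouse 4 it was 7, and without deleted mouse 6 it was 4. Without control mouse 3 it was 5, and with mice 2 and 7 both left out it was 4.

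**Figure D2:**
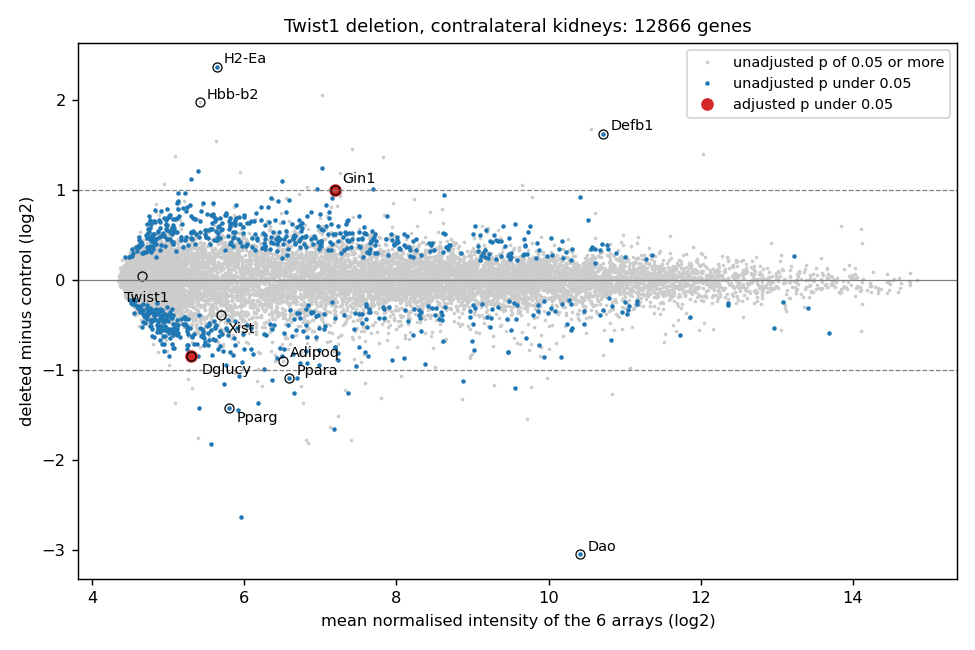
Log2 change, deleted minus control (y axis), against the mean normalised intensity of the 6 arrays (x axis) for 12866 genes, with the 2 that passed in red, those with an unadjusted p under 0.05 in blue and dashed lines at a 2-fold change. H2-Ea, Hbb-b2 and Dao have the large changes of genes that stand apart in mouse 7, while Gin1 and Dglucy have smaller changes and passed.

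Gin1 read 6.69, 6.66 and 6.74 in the 3 controls and 7.80, 7.68 and 7.62 in the 3 deleted kidneys. Each group was tight and every deleted kidney was about 1 log2 unit above every control. The change was 1.00 (SE 0.13, 95% interval 0.74 to 1.27, 2.00-fold, adjusted p = 0.00236), and it was 1.04 without mouse 7 (adjusted p = 0.00962). The call was lost in other fits. Its adjusted p was 0.105 with all 37 arrays (change 1.00), 0.156 with mouse as a random replicate block over them (change 0.96) and 1 with the 6 arrays alone. The gene has 3 probes. The other two were near background, detected on 1 and 0 of the 6 arrays, with differences of 0.37 and -0.13, so the call rests on 1 probe. When a gene's probes were averaged, its change was 0.69 with an adjusted p of 0.147.

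Set beside the other unobstructed groups, it was the controls whose Gin1 level was unlike the rest. The mean was 6.70 in the controls and 7.70 in the deleted kidneys, against 7.72 to 8.04 in the other 6 groups, of which 5 had an intact Twist1 gene and 1, the healthy deleted mice, had lost it. In obstructed kidneys Gin1 read 6.00, 5.90 and 5.64 in mice 1 to 3 and 6.45, 6.01, 6.37 and 7.28 in mice 4 to 7. Every deleted kidney was again above every control, by 0.68 in the means (SE 0.19, adjusted p = 0.19 over the 37 arrays), which did not pass, and by 0.43 without mouse 7 (adjusted p = 0.729). These are the second kidneys of the same mice and no separate set of animals.

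Dglucy read 5.66, 5.85 and 5.64 in controls and 5.12, 5.03 and 4.49 in deleted kidneys. The groups did not overlap, and the probe was detected in 3 of 3 controls and 1 of 3 deleted kidneys. The change was -0.84 (SE 0.13, 95% interval -1.12 to -0.56, adjusted p = 0.0248). It was -0.64 without mouse 7 and -0.77 without control mouse 2, and without mouse 2 or without control mouse 1 it no longer passed (adjusted p = 0.126 and 0.0605). Nor did it pass with the 6 arrays alone (adjusted p = 1), without background correction (change -0.28, adjusted p = 0.588), with the authors' series matrix values (change -0.65, adjusted p = 0.83) or without mice 2 and 7 together (change -0.58, adjusted p = 0.139). Dglucy was detected on 5 of the 37 arrays, and its mean was 4.44 to 4.61 in the other 6 unobstructed groups, below both groups compared here (5.72 and 4.88). In obstructed kidneys of the same mice its change was -0.12 (SE 0.13).

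**Figure D3:**
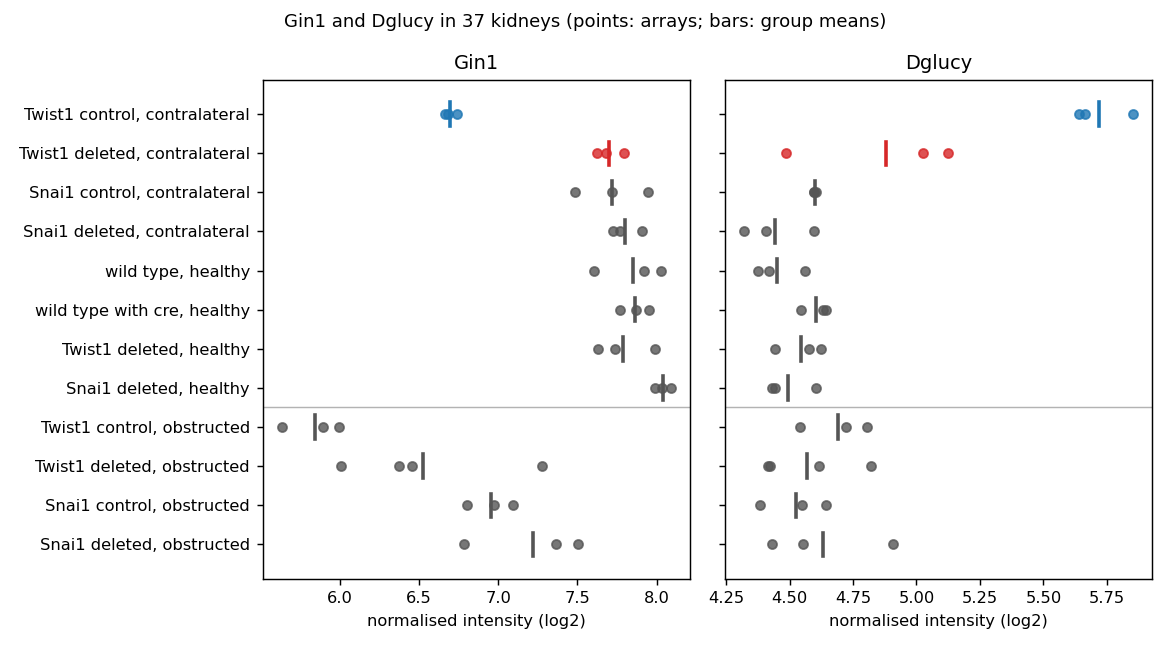
Normalised intensity (log2, x axis) of Gin1 and Dglucy in 37 kidneys by group (y axis), with points for arrays, bars for group means and a line between unobstructed and obstructed kidneys. The Twist1-line contralateral controls (blue) are low for Gin1, at a mean of 6.70, and high for Dglucy, at 5.72, against all 6 other unobstructed groups in grey, and the deleted kidneys (red) lie at 7.70 and 4.88.

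The promoters of these 2 genes are shown because Twist1 acts through E-boxes, and the letters CANNTG were searched in them on both strands. The RefSeq windows of build GRCm38.p6 run from 250 bases before the gene start to 50 after it, on the plus strand at chr1:97769922-97770221 for Gin1 and at chr12:100778807-100779106 for Dglucy. Matches would stand in capitals. Neither window holds one, while 72.3% of 32851 windows of this length do. The narrower forms CATATG and CATCTG, which are cases of CANNTG, occur in 3.9% and 17.2% of all windows. That no match was found says only that these letters are not in these 300 bases.
Gin1: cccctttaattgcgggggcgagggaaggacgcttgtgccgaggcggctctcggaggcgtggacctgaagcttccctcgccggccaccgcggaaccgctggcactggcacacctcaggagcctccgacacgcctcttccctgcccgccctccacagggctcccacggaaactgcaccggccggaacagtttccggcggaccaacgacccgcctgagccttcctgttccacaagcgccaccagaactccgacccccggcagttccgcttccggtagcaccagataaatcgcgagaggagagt
Dglucy: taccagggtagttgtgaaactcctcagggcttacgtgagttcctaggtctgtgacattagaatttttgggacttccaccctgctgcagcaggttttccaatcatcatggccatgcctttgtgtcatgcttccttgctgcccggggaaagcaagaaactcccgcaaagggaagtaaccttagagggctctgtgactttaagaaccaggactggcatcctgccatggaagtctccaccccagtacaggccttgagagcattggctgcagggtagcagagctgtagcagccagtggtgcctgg

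The neighbours of both genes were also read, since a change shared over a stretch of chromosome would appear there. Of the 10 genes nearest Gin1, 2 were measured, with changes of 0.25 (SE 0.18) for the inositol phosphate kinase gene Ppip5k2 and -0.02 (SE 0.26) for the peptide-amidating enzyme gene Pam. Next to Dglucy, the kinase gene Rps6ka5 had a change of 0.13 (SE 0.26) and Ccdc88c one of -0.27 (SE 0.21). None of these 4 had an unadjusted p under 0.05.

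Next in rank came genes that did not pass, the 5 of lowest p in each direction beside Gin1 and Dglucy. Insig2, which holds back the sterol-sensing complex in the endoplasmic reticulum, read 9.29, 8.96 and 9.07 in controls and 9.79, 9.76 and 9.58 in deleted kidneys. The groups did not overlap, and the change was 0.60 (SE 0.12, adjusted p = 0.126). In obstructed kidneys of the same line the change was 0.68 (SE 0.14, adjusted p = 0.0737), and 0.655 without mouse 7 (adjusted p = 0.347). The transcript 2610524H06Rik read 5.73, 5.97 and 6.15 against 6.90, 6.87 and 7.38, a change of 1.10 (SE 0.23, adjusted p = 0.141). In obstructed kidneys it read 6.76, 6.54 and 6.40 in controls and 6.93, 7.13, 7.05 and 7.14 in deleted mice. Hcfc2, a transcriptional cofactor, had a change of 0.76 (SE 0.15, adjusted p = 0.131), and Acpp, an acid phosphatase, one of 0.81 (SE 0.18, adjusted p = 0.254). The secreted protease gene Adamts16 was detected in 0 of 3 controls and 2 of 3 deleted kidneys and was at least 1.21-fold higher (adjusted p = 0.386). This bound, like those below, sets the brighter group's mean against the lowest detected signal of the dim arrays. In obstructed kidneys Adamts16 read 9.39, 6.89 and 8.88 in controls and 7.14, 8.52, 6.34 and 7.40 in deleted mice, with the lower mean in deleted mice.

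Among the lower genes, Selp encodes P-selectin, the endothelial and platelet protein on which leukocytes first roll. It read 5.51, 5.14 and 5.64 in controls and 4.61, 4.63 and 4.51 in deleted kidneys. All 3 controls and none of the deleted kidneys were above background, and Selp was at least 1.25-fold lower (adjusted p = 0.126). In obstructed kidneys it read 6.48, 7.15 and 5.98 in controls and 5.34, 5.70, 5.60 and 4.74 in deleted mice, and there it passed the test over 37 arrays, with a change of -1.19 (SE 0.23, adjusted p = 0.0403). Without mouse 7 that change was -0.99 and did not pass (adjusted p = 0.286). The groups did not overlap in either kidney, and the difference between the 2 effects was -0.35 (SE 0.33, adjusted p = 0.902). Lypd4, which encodes a surface protein of mouse sperm, was detected in 2 of 3 controls and 0 of 3 deleted kidneys and was at least 1.01-fold lower (adjusted p = 0.0552). Gab3, a docking protein of growth factor signalling, Phip, a binding partner of insulin receptor substrates, and the zinc finger gene Zfp646 were each detected in 3 controls and no deleted kidney. They were at least 1.13-fold, 1.42-fold and 1.24-fold lower.

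The 12 genes were also set beside the other 6 unobstructed groups. For 4 of them the control mean alone lay outside the range of those 6 group means, for 1 (2610524H06Rik) the deleted mean alone, and for 7 both. The control mean thus lay outside for 11 and the deleted mean for 8, while over all genes it did so for 54.2% and 45.7%. Among the 836 genes with an unadjusted p under 0.05, 359 (42.9%) had the control mean alone outside that range and 146 (17.5%) the deleted mean alone, against 18.8% and 10.4% of all genes. These shares are descriptions, as choosing genes by their difference raises both.

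**Figure D4:**
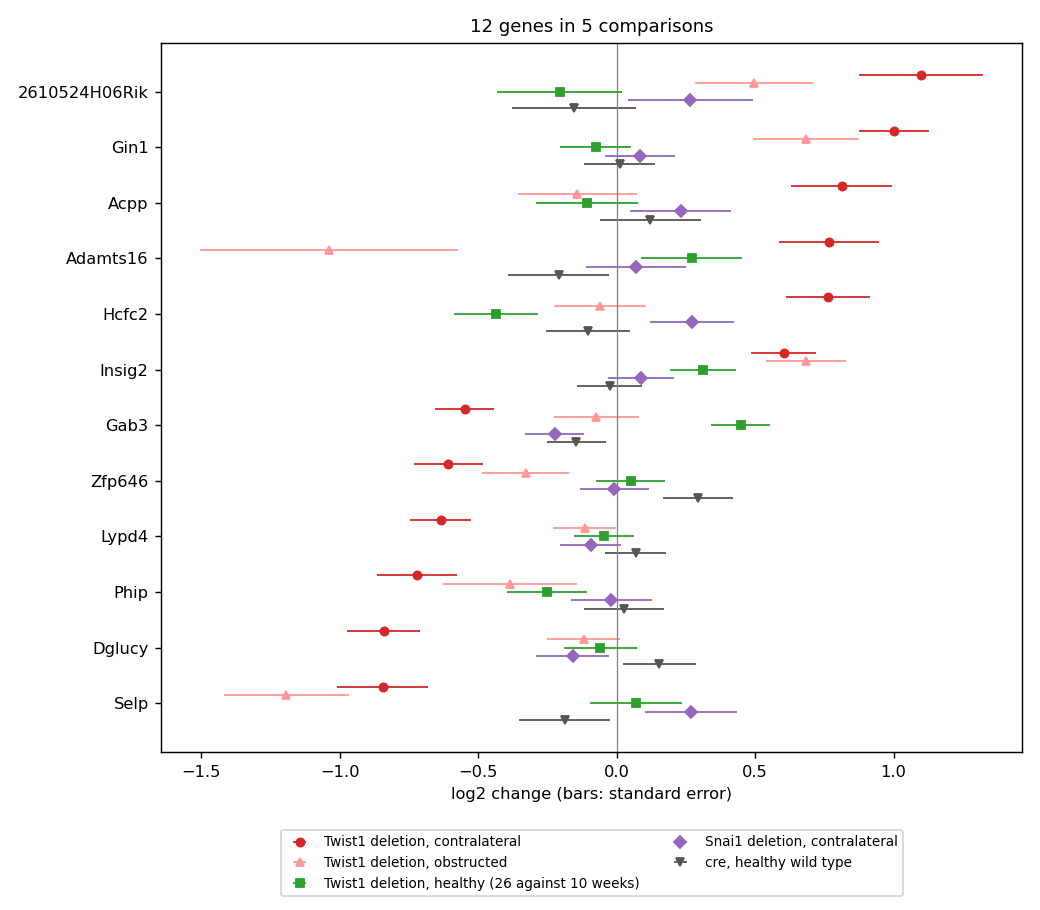
Log2 change with its standard error (x axis) of the 12 genes of lowest p, 6 per direction (y axis), in 5 comparisons. All are fitted values, also for genes with no detected array in a group. The changes in contralateral kidneys (red circles) are matched in obstructed kidneys of the same line for Insig2 and Selp. They are matched in part for Gin1, 2610524H06Rik and Zfp646. For Phip only the obstructed kidney of mouse 7 (4.89) lay below the controls (6.17 to 6.70), with deleted mice 4 to 6 at 6.27 to 6.72. The obstructed changes of Adamts16, Acpp and Hcfc2 have the other sign. The healthy, Snai1 and cre comparisons lie nearer 0 for most.

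Gene lists for the processes the deletion might touch gave no changed gene. The 35 lists hold 640 measured genes, of which 0 passed limma's adjusted test. At an unadjusted p under 0.05, 16 were higher (2.50%) and 27 lower (4.22%), beside 3.63% and 2.87% of all genes. The median change over the 640 genes was -0.01. In 30 of the 35 lists the median lay within 0.2 log2 units of 0, and the median changed sign in 22 when 1 array at a time was left out. The lists were drawn up with earlier results of these data known.

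The factors of Twist1's own circuit and its textbook targets came first. Of 14 listed Twist, Snail and Zeb factors with their E-protein and Id partners, 13 were measured and none had an unadjusted p under 0.05, with changes from -0.49 to 0.36 and a median of -0.05. Id1, an inhibitor of helix-loop-helix factors, had the lowest value in this list, and Id2, a related inhibitor, the highest. Among 18 epithelial junction genes none had an unadjusted p under 0.05 and the median was 0.04. E-cadherin (Cdh1), the adhesion protein that Twist1 is known to repress, read 10.08, 9.66 and 9.73 in controls and 9.66, 10.06 and 10.32 in deleted kidneys. The groups overlapped, and the change was 0.19 (SE 0.15, adjusted p = 0.874), or 0.04 without mouse 7 and 0.37 without mouse 4.

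Of 17 measured mesenchymal genes, 2 were higher and 3 lower at an unadjusted p under 0.05, and the median was -0.15. N-cadherin (Cdh2) read 4.73, 5.20 and 4.68 against 5.73, 5.53 and 5.20, a change of 0.62 (SE 0.19, adjusted p = 0.567), close to background in controls. The contractile genes Tagln and Des and the surface protein gene Thy1 had the lower values, at least 1.28-fold for Tagln, which no deleted kidney had above background, and with changes of -0.64 (SE 0.25) for Des and -0.95 (SE 0.40) for Thy1, which was -1.52 without control mouse 3. Of 26 extracellular matrix genes, 1 was higher and 1 lower. Collagen III (Col3a1) was above background in 0 controls and 2 deleted kidneys and at least 1.44-fold higher (adjusted p = 0.567). The protease inhibitor gene Timp3 had a change of -0.31 (SE 0.13), and of -0.15 without mouse 7. Of 22 genes of the TGF-beta and BMP pathway, the receptor gene Bmpr1a was higher, by 0.58 (SE 0.17), and the ligand gene Tgfb1 and its target Ccn2 lower, by -0.54 (SE 0.21) and -0.61 (SE 0.23). Without mouse 7 these 3 changes were 0.37, -0.34 and -0.36. None of these passed the adjustment, and the median of the pathway list was -0.06.

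Proximal tubule genes, in the cells where cre is active, came next. None of 30 measured proximal tubule transporters had an unadjusted p under 0.05, the changes ran from -0.38 to 0.42, the median was -0.08, and the 95% interval lay within a 2-fold change for 20 of them. Of 23 proximal tubule enzymes and regulators 2 were lower, and both changes were much smaller without mouse 7. The brush-border peptidase gene Anpep read 9.94, 9.79 and 9.87 in controls and 9.70, 9.67 and 7.85 in mice 4, 6 and 7. Its change was -0.80 (SE 0.35) and -0.18 without mouse 7. For Dao the change was -3.05 (SE 1.36) with mouse 7 and -0.90 without it, with controls at 11.88, 11.90 and 12.04 and mice 4 and 6 at 11.00 and 11.08.

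In lipid and energy metabolism, 1 of 25 fatty acid oxidation genes was lower. Ppara, the nuclear receptor that drives this pathway, read 7.38, 7.02 and 7.01 in controls and 7.25, 6.31 and 4.57 in deleted kidneys, a change of -1.09 (SE 0.43) that was -0.35 without mouse 7 and -1.70 without mouse 4. The list's median was 0.01. Of 26 respiratory chain genes the ATP synthase subunit gene Atp5a1 alone was higher, by 0.46 (SE 0.22) and by 0.06 without mouse 7, and all 26 had an interval within a 2-fold change. Among 19 sterol and fatty acid synthesis genes the sterol desaturase gene Sc5d was higher, at least 1.25-fold, detected in 0 controls and 2 deleted kidneys. The lists of glycolysis and hypoxia response (18 genes) and of detoxification and Nrf2 targets (28 genes) had no member with an unadjusted p under 0.05.

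Genes of the other nephron segments and of blood were read next. Defb1, a defensin of the distal nephron, read 11.59, 8.99 and 9.15 in controls and 10.84, 10.83 and 12.93 in deleted kidneys, so that control mouse 1 lay within the deleted range. Its change was 1.63 (SE 0.57), 0.93 without mouse 7 and 2.46 without mouse 1. Foxi1, the factor that specifies intercalated cells, had a change of 0.62 (SE 0.28), 0.20 without mouse 7 and 0.37 without mouse 1. The medians of the thick limb list (20 genes), the collecting duct list (21) and the podocyte list (9) were 0.16, 0.11 and 0.14, and -0.02, -0.12 and -0.25 without mouse 7. Other arrays moved them too, and the podocyte median was 0.0004 without control mouse 2. Among 7 blood genes the heme synthesis gene Alas2 was higher, by 0.95 (SE 0.45), and by 0.43 without mouse 7. The median of the blood list was 0.57, and 0.26 without mouse 7. The level of blood genes, summed as the mean of the list, was 9.70 to 10.10 in controls and 10.03 to 11.46 in deleted kidneys.

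The immune lists had medians from -0.13 to 0.36. Of 21 macrophage and myeloid genes the adaptor gene Tyrobp was higher, by 0.72 (SE 0.26), and the median was 0.08. The neutrophil list of 8 genes had a median of 0.36, which was -0.09 without mouse 7, and its calprotectin gene S100a8 read 7.47, 6.21 and 5.03 in controls and 6.72, 5.86 and 9.01 in deleted kidneys. Of 25 histocompatibility genes, H2-Ea and Tapbp were higher and H2-Q1 lower. H2-Ea, detected in 0 controls and in 1 deleted kidney, that of mouse 7, was at least 3.49-fold higher (adjusted p = 0.722), and without mouse 7 no kidney of either group was above background. Tapbp, a peptide-loading factor, had a change of 0.70, and of 0.38 without mouse 1 and 0.36 without mouse 4, while H2-Q1 was at least 1.26-fold lower, detected in 3 controls and no deleted kidney. Of 33 interferon-stimulated genes, Stat2 and Zbp1 were higher, by 0.34 (SE 0.14) and 0.45 (SE 0.20), the second being 0.24 without mouse 1. Among 28 chemokine and cytokine genes the chemokine gene Cxcl14 read 7.72, 6.92 and 7.19 in controls and 6.12, 6.80 and 5.16 in deleted kidneys. The groups did not overlap, and the change was -1.25 (SE 0.44, adjusted p = 0.604), or -0.82 without mouse 7. Of 21 endothelial genes Selp alone was lower. The tubular injury list of 23 genes held 1, Cd44, a hyaluronan receptor, which was detected in 3 controls and no deleted kidney and was at least 1.20-fold lower. None of the 16 complement genes had an unadjusted p under 0.05.

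The medians of the adipose and the immediate early lists shrank when 1 control mouse was left out. Of 12 adipose genes 5 were lower, namely Cidec, Lpl, Pparg, Lipe and Pnpla3, with a median of -1.03 that was -0.13 without control mouse 2. Pparg, the regulator of fat cell formation, read 5.60, 7.80 and 6.14 in controls and 4.97, 5.72 and 4.59 in deleted kidneys, a change of -1.42 (SE 0.44) that was -0.78 without mouse 2. The mean level of the list was 6.13 to 9.16 in controls and 6.15 to 6.50 in deleted kidneys, and whether attached fat had a part in it was not tested. Of 21 immediate early genes Junb, Egr3 and Atf3 were lower, and the median of -0.39 was -0.11 without control mouse 1, in which Atf3 read 8.37 against 5.32 and 4.66 in the other controls. The mean level of these genes was 6.72 to 7.88 in controls and 6.66 to 6.83 in deleted kidneys.

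Of 19 circadian clock genes, Clock was higher and Per1, Per2, Per3, Tef and Tsc22d3 lower. The 3 Per genes encode the repressors of the clock, and Tef is a clock-driven factor. Tef read 10.49, 10.48 and 10.50 in controls and 10.24, 10.01 and 9.76 in deleted kidneys. No deleted kidney reached the level of a control, and the change was -0.49 (SE 0.16, adjusted p = 0.567). Per1 had a change of -1.12 (SE 0.40), which was -0.59 without mouse 7 and -0.72 without mouse 1. The clock activator gene Arntl read 7.18 in mouse 7 and 4.47 to 5.02 in the other 5, and the clock output gene Dbp read 10.97 in mouse 7 and 12.29 to 12.66 in the others. The median of the list was -0.26, and -0.09 without mouse 7.

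Of 26 kidney genes that differ between the sexes none had an unadjusted p under 0.05. Their median of -0.04 was -0.48 without mouse 1 and 0.16 without mouse 7, the 2 mice with Xist. Slc7a12, an amino acid transporter higher in female mouse kidney, read 10.38, 4.49 and 5.18 in controls and 7.93, 6.78 and 9.70 in deleted kidneys, with the high values in mice 1 and 7. Of 28 cell cycle genes Pcna, the replication clamp, was at least 1.06-fold higher and Ccnd2, a G1 cyclin, had a change of -0.89 (SE 0.37) that was -0.29 without mouse 7. The remaining lists, of T and NK cells (15 genes, 1 lower), B and plasma cells (7), muscle (10, 2 lower), adrenal gland (3), chaperones (20) and sex markers (7), held none that passed.

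**Figure D5:**
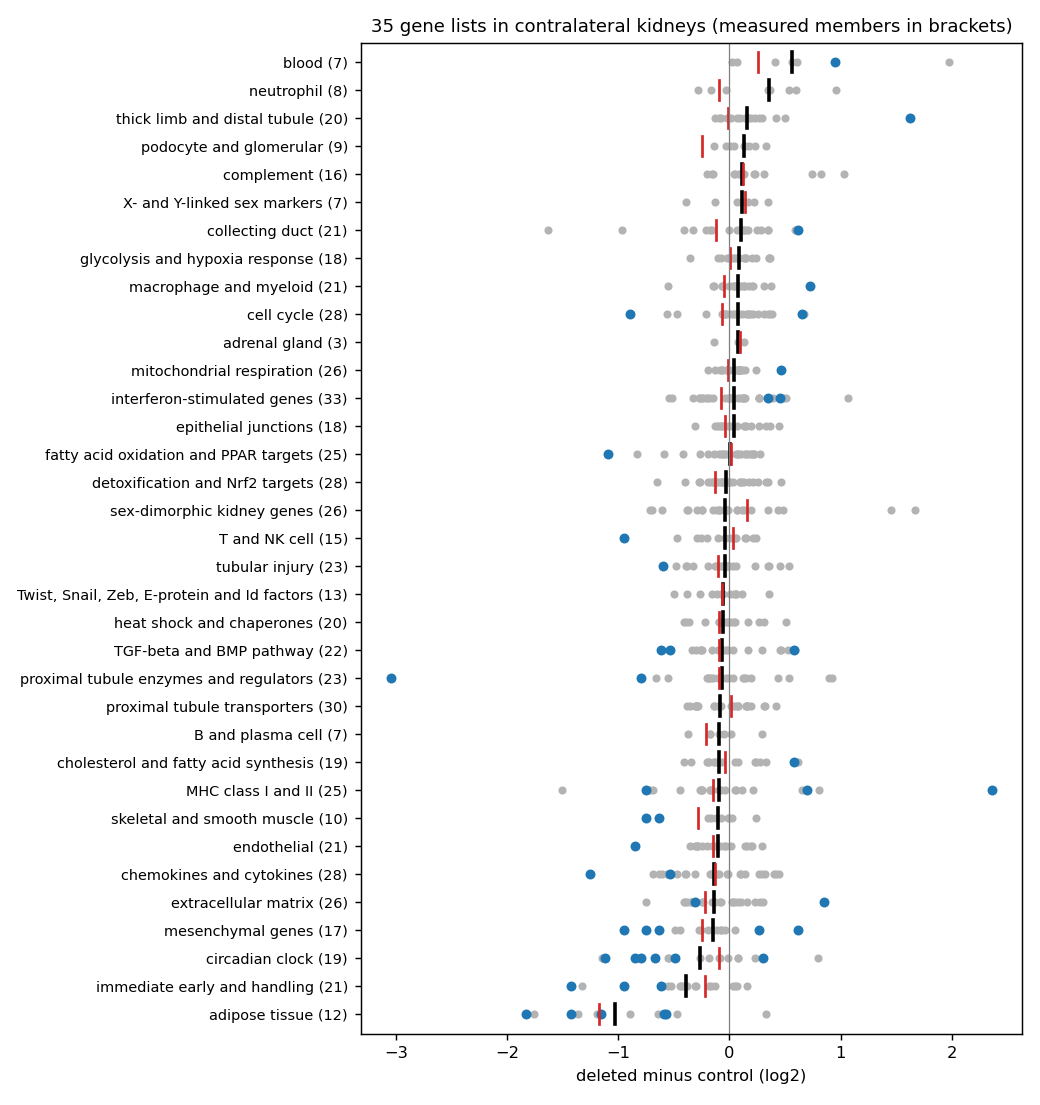
Log2 change, deleted minus control (x axis), of each measured member of 35 lists (y axis, number of measured members in brackets), in blue where the unadjusted p was under 0.05 and in grey otherwise, with black bars for the list medians and red bars for the medians without mouse 7. Most medians lie within 0.2 of 0, and the adipose median of -1.03 is the farthest from it.

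The effect was then set beside other comparisons made in unobstructed kidneys. Snai1 deletion in contralateral kidneys changed 0 genes (0%) by limma, with 399 at an unadjusted p under 0.05. The cre transgene in healthy wild-type kidneys changed 1 gene (0.00777%), the cyclin gene Ccng2. The difference between the Twist1 and the Snai1 effects was tested directly, and 0 genes passed, with 483 at an unadjusted p under 0.05 and Gin1 lowest (difference 0.92, adjusted p = 0.76). For the difference from the cre effect 0 genes passed as well, with 589 at an unadjusted p under 0.05. Gin1 differed from the cre effect by 0.99 (adjusted p = 0.102) and Dglucy by -0.99 (adjusted p = 0.117). Across the 12866 genes the change in contralateral kidneys correlated with that of Snai1 deletion at r = 0.147 and with that of cre at r = -0.0783. Genes are not independent replicates, and these values carry no test.

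Healthy Twist1-deleted kidneys differed from healthy wild-type kidneys with cre in 619 genes (4.81%), 365 higher and 254 lower. That comparison also sets 26 weeks against 10 weeks and a floxed Twist1 line against wild type. Xist exceeded the Y-linked genes in 3 deleted mice and in 0 wild-type mice with cre. Age, sex, line and deletion therefore cannot be told apart in the count, and whether the 2 groups also differ in background was not tested. Of its 365 higher genes, 161 were also higher in contralateral kidneys (44.1%, beside 52.0% of all genes), and of its 254 lower genes 97 were also lower (38.2%, beside 48.0%). The correlation of the 2 sets of changes was -0.0546. The difference between the 2 effects passed for 91 genes (0.707%), 60 positive and 31 negative. That count was 24 without mouse 1, 57 without mouse 2, 60 without mouse 7 and 148 without mouse 3, and it was 30 with all 37 arrays and 143 without background correction. The lowest p was that of Dtd2, a D-aminoacyl-tRNA deacylase (adjusted p = 6.02e-05). It was above background in 0 of the 6 contralateral and 0 of the 3 healthy deleted kidneys, and at least 6.83-fold lower in healthy deleted than in wild-type kidneys with cre. Dtd2 read 4.26 to 4.43 in all 6 contralateral kidneys compared here and averaged 4.39 in healthy deleted and 7.82 in healthy wild-type kidneys with cre. Its level was thus low in Twist1-line kidneys with and without the deletion, and the difference came from the healthy comparison. Gin1 also passed this test (difference 1.08, SE 0.18, adjusted p = 0.00978), with a change of -0.08 in healthy kidneys.

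In the obstructed kidneys of the same line, Twist1 deletion changed 4 genes (0.0311%) in the fit over 37 arrays, and 1 without mouse 7, and the difference between the obstructed and the contralateral effect passed for 0 genes by limma, with 757 at an unadjusted p under 0.05. With mouse as a fixed replicate block 0 passed and 905 had an unadjusted p under 0.05, and with mouse as a random replicate block 1 passed. The changes in the 2 kidneys correlated at r = 0.182 over all genes and at 0.151 without mouse 7, and the kidneys come from the same mice.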

How the data were processed

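Whole-kidney RNA was taken up in Trizol and hybridised as biotinylated cRNA to Illumina bead arrays, per the labels' protocols. Per the file headers, the deposited table holds 1 average signal intensity per probe and array with a detection p-value, and the submitters' processing notes name GenomeStudio 5.0. The authors' series matrix holds scaled intensity values of the same arrays and was used as an alternative.

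Intensities were background-corrected and quantile-normalised on the log2 scale with neqc (limma 3.58.1, R 4.3.3, offset 16); the deposited values hold no log2 numbers. Of 45281 probes, 24544 had a detection p under 0.05 on at least 3 arrays. The probe of highest mean stood for each of 12866 genes. Group means of 8 unobstructed groups (24 arrays) were fitted with limma, and p-values were adjusted by Benjamini-Hochberg over all genes. Comparisons with obstructed kidneys used 37 arrays in 12 groups. The number of arrays limits the precision. The fit was tested on simulated data of 12866 genes, 200 of them changed, with 6 false calls.

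Members and lists were chosen with earlier results of these data known. The text names Twist1 and Snai1 (Ggt1 is not analysed here), the 6 genes of lowest p per direction, up to 3 list members of largest test statistic, Xist and Y-linked genes, up to 5 genes per test of a difference, and neighbours of Twist1. Genes that stand apart in mouse 2 or 7, the neighbours of Gin1 and Dglucy and further list members were named after their values were seen. Residuals of the 2 kidneys of a mouse, paired by the mouse number in the labels, correlated at 0.171 to 0.430 in 6 mice.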

Additional observations from a re-analysis of the deposited data

Results flagged for a closer look

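Genes whose deletion effect in contralateral kidneys differed from that in healthy kidneys, by a test of the difference in the fit over 24 arrays, are given here as contralateral minus healthy log2 changes. The difference was 3.35 for Dtd2, 2.02 for Ubxn10 and 1.64 for Pla2g2c, a secreted phospholipase gene. For all 3 the contralateral changes were between -0.07 and 0.25 and the healthy changes between -3.42 and -1.46. These are fitted values, since no healthy deleted kidney had any of the 3 above background, and in healthy deleted kidneys they were at least 6.83-fold, 2.64-fold and 2.20-fold lower than in wild-type kidneys with cre. The undeleted contralateral controls, 10 weeks old, were also low, at 4.35 to 4.43, 4.55 to 4.63 and 4.69 to 4.97, with 0 of 3 detected for each gene. It was -1.67 for Lbh, a transcriptional regulator, and -0.996 for Gab3. Gin1 differed by 1.08 and Hcfc2 by 1.20, and for these 2 the contralateral change was the larger (1.00 and 0.76, against -0.08 and -0.44). Gab3 had a contralateral change of -0.55 and read 5.07 to 5.41 in healthy deleted and 4.71 to 4.83 in wild-type kidneys with cre. In contralateral Snai1-line kidneys Dtd2 read 7.32 to 7.63, Ubxn10 4.58 to 5.19 and Pla2g2c 4.45 to 5.17. For Dtd2, Ubxn10, Pla2g2c, Lbh and Gab3, line, age and the number of mice with Xist cannot be told apart from the deletion within the healthy comparison.

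In the 4 obstructed kidneys of Twist1-deleted mice, mouse 7 lay far from the other 3 for H2-Ea, Dao and Hbb-b2. The gap to the nearest kidney was 0.991, 0.867 and 0.986 of the whole range, above Dixon's 95% limit for 4 samples. Chance gives such a gap in about 1 group in 20, 17 genes were examined, and these 3 were examined because mouse 7 stood apart for them in the contralateral kidney.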

How the results depend on the processing

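The count of 2 changed genes was 1 with all 37 arrays, 1 with only the 6 arrays (Ttc27), 1 with mouse as a random replicate block, 1 without background correction, 1 with the series matrix values and 1 with probes averaged. It was 4 without a detection filter, 2 to 7 when 1 array was left out, and 4 without mice 2 and 7 together. Gin1 was among the calls in 14 and Dglucy in 12 of 18 alternatives, and the direction of neither was reversed in any of them. The changes of Twist1 and Snai1, both near background, took either sign. Twist1 had -0.0118 with array weights, -0.11 to 0.145 with 1 array left out and -0.21 without mice 2 and 7, and Snai1 had -0.0635, -0.15 to 0.214 and -0.06. The other 10 genes kept their direction in every alternative run, Lypd4 passed in 6 and Hcfc2 in 1, but sizes shrank. With probes averaged Gab3 had -0.13, Insig2 0.29 and Phip -0.46, and without background correction Hcfc2 had 0.26, Acpp 0.38, Gab3 -0.17 and Selp -0.28. For the difference from the cre effect, 1 gene passed with 37 arrays, 2 without background correction and 0 to 1 with 1 array left out. For the difference from the healthy effect the 91 genes became 30 with 37 arrays, 143 without background correction and 24 (without mouse 1) to 148 (without mouse 3) with 1 array left out, and 57 without mouse 2 and 60 without mouse 7. For the difference from the obstructed effect, 1 gene (Stat2) passed with mouse as a random replicate block, 0 with it as a fixed replicate block, and 0 to 2 with 1 array left out. For the difference from the Snai1 effect, 0 passed in every alternative run. The median change of all genes was 0.01 in the fit used, 0.01 without background correction and 0.07 with the series matrix values. The slide as a block was not run, since the headers give none. Leaving out each array for the differences from the other effects, mice 2 and 7 together, and the obstructed kidney of mouse 7, were alternatives chosen after seeing the data. Genes near background, Dglucy, Selp, Lypd4 and Twist1 among them, carry bounds only where a group has no detected array. The causes of these shifts were not tested.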
